A study of Mus musculus with 3 samples.

Results

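Popliteal lymphnodes of SryHi males were compared with those of wildtype males across the genes of the autosomes. Sry is the transcription factor that starts testis development. SryHi males carry the XY-Sry+ genotype of the FCG mouse model, which separates gonadal sex from sex chromosomes and in which, by the study's account, Sry was deleted from the Y chromosome and several copies were put back as a transgene on chromosome 3. The RNA of 6 wildtype males and of 3 SryHi males was pooled into 1 library per genotype. All mice were C57Bl/6, untreated and 5 months of age. Whole nodes were homogenized, and stranded libraries depleted of ribosomal RNA were made from the total RNA and sequenced in pairs of short reads. Another library, of 6 wildtype females of the same strain and age, is used below only as a reference level. With 1 pool per group no difference could be set against the spread between replicates, and no test between the groups was made. The difference between the pools can come from the genotype, from individual mice or from dissection, and these cannot be told apart.

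The values are FPKM, the fragments of a gene scaled by transcript length and by how many fragments of that library were mapped. The log2 ratio of FPKM + 1 was taken, SryHi over wildtype males, and genes were kept if their mean over both pools was 5 FPKM or more. This scale understates the difference of genes with low values. A gene can pass the filter through 1 pool alone, and its direction is then not independent of the filter. Genes of the X and Y chromosomes and of the mitochondrial genome were left out. This left 10339 of 48568 gene symbols, of which 8908 are protein-coding with a transcript of at least 300 nt. At the depth estimated from low values, 5 FPKM correspond to about 97.5 fragments in SryHi and 110 in wildtype males at the median transcript length of these protein-coding genes, 3511.5 nt. Sry itself, outside the autosomal genes, had 20.8 FPKM in SryHi males and was listed at 0 in wildtype males and in females.

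A lymphnode is built so that naive lymphocytes meet antigen. Lymphocytes leave the blood through high endothelial venules, T and B cells settle in separate zones laid out by stromal chemokines, and sinus macrophages and lymphatic endothelium line the path of the lymph. Interferons, neutrophils and the fat in which a node is embedded can each leave a strong mark on RNA from the whole organ. In such RNA, fewer cells of a type and less RNA per cell cannot be told apart. Markers of the node were present in both pools: the B cell genes Ms4a1 and Cd79a had 156 and 249 FPKM in SryHi males and 160 and 288 FPKM in wildtype males. The follicle chemokine gene Cxcl13 had 225 and 216 FPKM in the same order. The chemokine genes Ccl21a, Ccl21b and Ccl21c were listed at 0 in all 3 libraries and Ccl19 was under 1 FPKM, so the files do not show the T zone chemokines of a node.

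The pools were alike for most genes. The median log2 ratio of the autosomal genes was 0.03, with quartiles of -0.27 and 0.31, and 53.3% of them lay above 0. At least 2-fold higher in SryHi males were 273 genes, 2.64% of the genes compared, and at least 2-fold lower were 394, or 3.81%. Among the protein-coding genes 115 were higher, which is 1.29%, and 146 were lower, which is 1.64%. At a 4-fold difference 8 protein-coding genes were higher and 9 lower. Just inside the 2-fold limit stood B3gnt5 and Stc1 above, at 91.8 and 14.7 FPKM in SryHi against 45.4 and 6.83 FPKM in wildtype males, and Akr1b3 and Cdca4 below, at 10.6 and 5.72 FPKM against 22.2 and 12.5 FPKM. Just outside stood Fgl2 and Cox16 above, with log2 ratios of 0.992 and 0.998, and Izumo1r and Phpt1 below, with -0.997 and -0.998.

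The choice of scale bears on the directions that follow. Rescaling each library to TPM, on which the length-scaled values of all genes have the same sum in every library, moved the median ratio of the autosomal genes from 0.03 to 1.46. On that scale the median of 1 gene list lay below 0, the neutrophil list, against 20 of 42 lists as deposited. Lists are therefore read against the median of all genes. Of the 42 lists with at least 3 measured members, 16 had medians at least 0.25 away from it, 5 above and 11 below, and all 16 kept their side under the alternatives that gave them a value, TPM included. The small nucleolar RNA list, which is not protein-coding, had none among protein-coding genes or with length classes subtracted. The protein-coding FPKM summed to 368462 in SryHi and 371294 in wildtype males, so the values are given as deposited. Scaling by the upper quartile or by the protein-coding sum left the median of all genes at -0.01. The TPM sum takes in T cell receptor joining segments, with a median length of 60 nt. Of 11 such segments at the filter, 7 were listed at 0 in SryHi and 4 in wildtype males. Trbj1-3 had 131214 FPKM in wildtype males and Trbj1-6 128345 FPKM in SryHi. Their part in the shift to 1.46 was not tested.

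**Figure D1:**
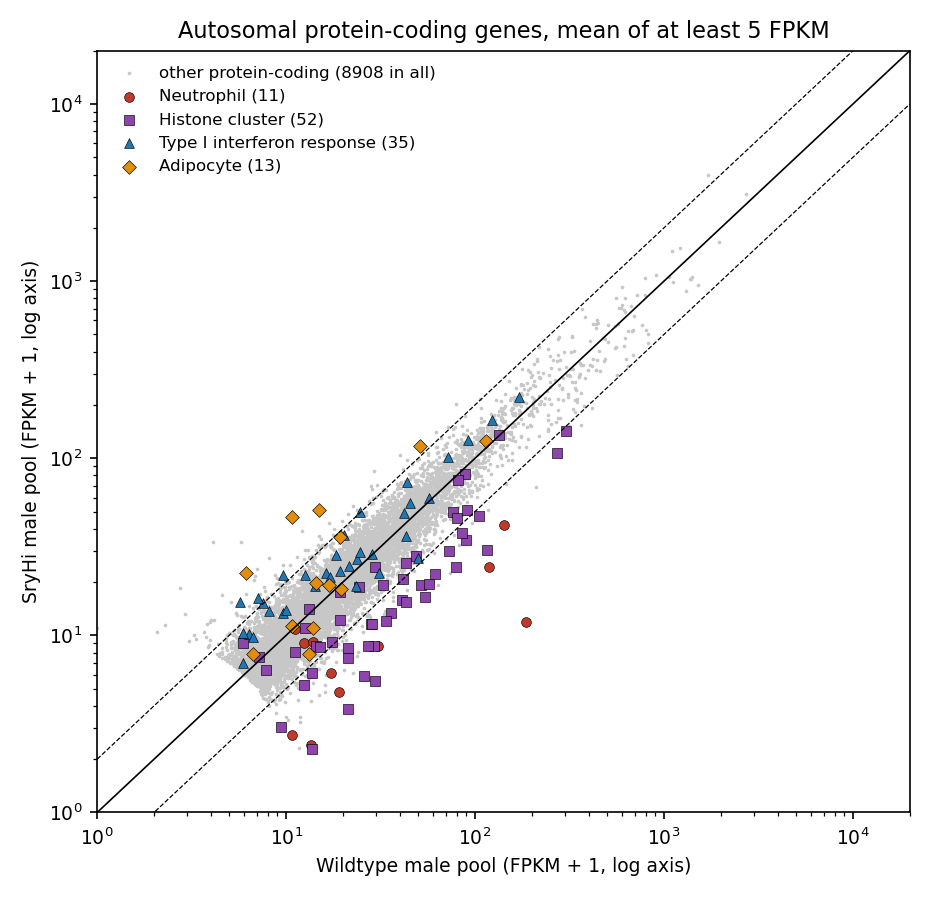
FPKM + 1 of 8908 autosomal protein-coding genes in the wildtype male pool (horizontal, log axis) and the SryHi male pool (vertical, log axis), 1 point per gene, with 4 gene lists in colour (3 of the 52 histone entries are not protein-coding). The solid line marks equal values and the dashed lines a 2-fold difference at the deposited scale. The 11 neutrophil and most of the 52 histone genes lie below the solid line, most of the 35 type I interferon genes lie above it, and 4 adipocyte genes lie above the upper dashed line.

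Genes induced by type I interferon were higher in the SryHi pool. Cells that sense viral or self nucleic acid release type I interferon, which acts through a complex of transcription factors on promoters that carry an interferon response element. Of 43 genes listed, 35 reached the filter. Of these, 31 lay above 0 and 4 below, with a median log2 ratio of 0.47 and quartiles of 0.23 and 0.76, beside 0.03 over all genes. At least 2-fold higher were 5 of the 35, and none was 2-fold lower. The SryHi library had the highest FPKM of the 3 libraries in 31 of the 35 genes, against 42.2% of protein-coding genes at large. The other 8 genes listed, below the filter, were higher in 6 cases and lower in 2.

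The 5 genes past 2-fold are antiviral effectors and sensors. Ifit3, which binds foreign RNA together with its relatives, had 14.4 FPKM in SryHi males, 4.72 in wildtype males and 2.48 in females (log2 ratio 1.43). Mx1, a GTPase that blocks influenza virus, had 15.2, 6.11 and 6.84 FPKM in the same order, a log2 ratio of 1.19. Ifih1, the cytosolic sensor of long double-stranded RNA, had 20.8, 8.59 and 9.03 FPKM (log2 ratio 1.19). In these 3 genes the SryHi pool stood above both wildtype pools. Slfn8, a member of the Schlafen family, had 48.6, 23.6 and 30.0 FPKM, and Ifit2, a relative of Ifit3, had 14.2, 6.53 and 8.62 FPKM, each with a log2 ratio of 1.01. The kinase gene Eif2ak2, which stops translation on double-stranded RNA, followed with 36.1 FPKM in SryHi and 19.3 FPKM in wildtype males (log2 ratio 0.87).

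The most abundant members differed less. Sp100, a nuclear body protein, had 219 FPKM in SryHi and 169 in wildtype males (log2 ratio 0.37), and Ifi203, a DNA-binding protein, had 164 and 123 FPKM (log2 ratio 0.42). The transcription factor genes Stat2 and Irf9 were split, with log2 ratios of 0.47 and 0.01. The 4 genes below 0 were Ifi27l2a at -0.87, Bst2 at -0.47, Ifi35 at -0.30 and Ifi47 at -0.24. Genes that respond mainly to interferon gamma did not stand apart as a list, with a median of 0.14 over 16 genes, 10 above 0 and 6 below. Iigp1, a GTPase that attacks the vacuole of parasites, had 41.0 and 20.9 FPKM (log2 ratio 0.94). Tgtp1, another GTPase, had 2.23 and 10.9 FPKM (log2 ratio -1.88), and Socs1, the feedback inhibitor of the pathway, had 3.78 and 14.98 FPKM (log2 ratio -1.74). Tgtp1 has a near copy, Tgtp2, at 7.85 and 8.26 FPKM, and the counting of short mates could have split reads between them.

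Promoter sequences of the interferon genes are shown as a description of the list. Its members were chosen as genes induced by interferon, so the share with the element belongs to that choice. It does not bear on the difference between the pools. RefSeq windows on GRCm38.p6, from 250 bases before to 50 after the gene start, were found for 24 of the 35 genes, Mx1 not among them. The letters GAAANNGAA, the core of the interferon response element, were searched on both strands. They were in a window of 13 of the 24 genes, against 9.76% of all 27025 genes with a promoter window and 9.24% of the autosomal genes at 5 FPKM. Of the genes past 2-fold, 3 of the 4 with a window had a match. The 13 genes with a match had a median log2 ratio of 0.48 and the 11 without one a median of 0.24, and 12 of 13 and 9 of 11 lay above 0. The difference between these medians was not tested. The letters TTCNNNGAA, the core of the gamma-activated element, were in 4 of the 24 genes, against 9.55% of all genes in the table. These matches are letters in a window and were not tested as binding sites. The windows below run 5′ to 3′ along the gene, with matches to GAAANNGAA on either strand in capitals.
Ifit3, chr19:34583279-34583578, plus strand: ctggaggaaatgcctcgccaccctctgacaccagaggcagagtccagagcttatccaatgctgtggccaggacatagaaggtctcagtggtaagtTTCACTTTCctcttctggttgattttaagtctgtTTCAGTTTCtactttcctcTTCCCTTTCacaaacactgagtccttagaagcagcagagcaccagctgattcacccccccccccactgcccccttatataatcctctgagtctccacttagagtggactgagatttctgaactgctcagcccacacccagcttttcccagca
Ifih1, chr2:62646206-62646505, minus strand: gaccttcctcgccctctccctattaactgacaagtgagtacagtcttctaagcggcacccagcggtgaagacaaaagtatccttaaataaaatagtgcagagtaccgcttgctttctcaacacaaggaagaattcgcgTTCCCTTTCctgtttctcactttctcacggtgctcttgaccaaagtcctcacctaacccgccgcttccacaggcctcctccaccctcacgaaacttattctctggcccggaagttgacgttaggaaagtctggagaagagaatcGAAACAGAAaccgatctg
Slfn8, chr11:83020673-83020972, minus strand: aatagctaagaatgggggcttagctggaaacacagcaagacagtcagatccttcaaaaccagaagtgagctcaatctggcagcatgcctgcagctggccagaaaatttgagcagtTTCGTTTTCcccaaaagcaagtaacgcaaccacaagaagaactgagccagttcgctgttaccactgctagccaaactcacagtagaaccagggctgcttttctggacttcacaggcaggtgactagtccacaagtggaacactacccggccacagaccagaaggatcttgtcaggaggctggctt
The 3 matches of Ifit3 begin 155, 121 and 102 bases before the start, and the window holds them within a short stretch. Ifih1 has a match 112 bases before the start and another 32 bases after it. Slfn8 has 2 windows in the table, and the one shown has 1 match, 135 bases before the start. Both windows of Ifit2 are without these letters.

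Neutrophil genes set the pools furthest apart. Neutrophils store antimicrobial proteins in granules and are rare in a resting node. Of 19 genes listed, 11 reached the filter and all 11 lay below 0, with a median log2 ratio of -1.83. At least 2-fold lower were 8 of the 11, beside 3.81% of all autosomal genes. Some, such as Camp, Ltf and Retnlg, were under 5 FPKM in SryHi and passed only through the wildtype male value. Of the 8 genes below the filter, 1 was higher and 7 were lower. Slpi, a secreted inhibitor of neutrophil elastase that macrophages and epithelium also make, had 10.9 FPKM in SryHi males and 186 FPKM in wildtype males, the lowest ratio of all protein-coding genes at -3.98. S100a8 and S100a9, calcium-binding proteins of the neutrophil cytosol, had 41.2 and 23.3 FPKM in SryHi and 141 and 117 FPKM in wildtype males, log2 ratios of -1.75 and -2.28. In wildtype males both genes were at a higher level than in SryHi. Camp, the precursor of the antimicrobial peptide cathelicidin, had 1.42 and 12.6 FPKM (log2 ratio -2.49). The granule protein genes Ltf and Ngp had log2 ratios of -1.98 and -1.83, and Retnlg, a secreted resistin-like protein, one of -2.00.

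The wildtype male pool was the library that stood apart in these genes. It was the highest of the 3 libraries in 11 of 11, and SryHi was the lowest in 2. The first count includes the genes that passed the filter only through the wildtype male value. Slpi had 23.5 FPKM in females, S100a8 23.4, S100a9 20.2, Camp 1.94, Ltf 1.05 and Retnlg 2.24, all nearer to the SryHi than to the wildtype male values. The 19 listed genes summed to 135 FPKM in SryHi, 596 in wildtype males and 100.2 in females. Receptor genes of mature neutrophils differed less than granule genes: Csf3r, the receptor of the growth factor G-CSF, had 8.15 and 12.9 FPKM, and Cxcr2, a chemokine receptor, 8.02 and 11.4 FPKM. Of the lineage markers below the filter, Ly6g was listed at 0 in SryHi and had 0.777 FPKM in wildtype males, and the protease gene Elane was listed at 0 and had 3.38 FPKM. How much of the other differences from the wildtype male pool goes with this library was not tested.

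Other genes shared that order, with wildtype males above both other libraries. Hmox1, which breaks down haem, had 21.5 FPKM in SryHi, 72.6 in wildtype males and 17.3 in females (log2 ratio -1.71). The iron exporter Slc40a1 had 14.9, 31.7 and 10.5 FPKM (log2 ratio -1.04). The ferritin chains hold the iron store of a cell, and of these Ftl1 had a log2 ratio of -0.94 and Fth1 one of -0.37. Over the 11 genes of haem and iron the median was -0.19, with 3 at least 2-fold lower. The monocyte-attracting chemokine genes Ccl7 and Ccl8 had 2.45 and 67.7 FPKM in SryHi against 10.8 and 210 FPKM in wildtype males, log2 ratios of -1.78 and -1.62. Ccl8 had 87.9 FPKM in females. In the opposite direction among chemokines, Ccl17, a product of dendritic cells, had 10.5 and 4.60 FPKM, and Ccl9 had 14.1 and 6.30 FPKM, log2 ratios of 1.04 and 1.05. The 16 chemokine genes together had a median of 0.12.

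Immediate early genes, which respond within minutes to handling and to signals, had a median log2 ratio of -0.52, with 13 of 18 below 0. Socs3, an inhibitor of cytokine signalling, had 6.04 and 17.3 FPKM (log2 ratio -1.38), and Cyr61, a secreted matrix protein, 5.85 and 12.1 FPKM (log2 ratio -0.94). The abundant members went apart: Nfkbia, the inhibitor of NF-kB, had 122 and 79.3 FPKM (log2 ratio 0.61), while Btg2, an antiproliferative gene, had 40.9 and 60.3 FPKM (log2 ratio -0.55). Wildtype males were the highest of the 3 libraries in 12 of the 18, against 29.7% of protein-coding genes at large. Of 12 heat shock genes 8 lay below 0, at a median of -0.27, led by Hsph1 at 10.7 and 26.2 FPKM and Dnajb1 at 8.36 and 19.7 FPKM, chaperone genes with log2 ratios of -1.21 and -1.15. The abundant chaperones Hspa8 and Hsp90ab1 had log2 ratios of -0.31 and -0.33. Both lists can follow the handling of tissue before RNA is fixed, which the labels do not describe, and its part in the other results was not tested.

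Genes of the T cell receptor were lower in the SryHi pool, which here was the lowest of the 3 libraries. All 20 listed genes reached the filter, and 18 lay below 0, with a median log2 ratio of -0.47 and quartiles of -0.65 and -0.29. SryHi had the lowest FPKM of the 3 in 18 of the 20, against 33.8% of protein-coding genes at large. The genes summed to 627 FPKM in SryHi, 848 in wildtype males and 1129 in females. Trbc2, a constant region of the receptor beta chain, had 39.7 FPKM in SryHi, 99.1 in wildtype males and 164 in females, and its log2 ratio of -1.30 was the only one past 2-fold. Trbc1, its near copy, had 28.4, 50.4 and 82.2 FPKM (log2 ratio -0.81). The alpha constant region Trac had 59.2 and 73.6 FPKM in SryHi against wildtype males (log2 ratio -0.31), and Cd2, an adhesion receptor of T cells, 71.6 and 79.1 FPKM (log2 ratio -0.14). The SryHi pool was below both others in each of these.

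The invariant chains and the coreceptors did not move as 1 unit. Cd3d had 9.71 FPKM in SryHi and 19.05 FPKM in wildtype males (log2 ratio -0.90), and Cd3e 36.9 and 53.3 FPKM (log2 ratio -0.52). Cd8a, of cytotoxic T cells, had 27.8 and 38.1 FPKM (log2 ratio -0.44). Cd4, of helper T cells but also on macrophages and dendritic cells, had 44.9 and 39.9 FPKM (log2 ratio 0.17). Transcripts of T cell genes are not all of a length, and with the median of each gene's length class subtracted the list still had a median of -0.48, with 3 of 17 genes above 0.

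Naive and memory T cell genes had a median log2 ratio of -0.19 over 13, with 4 above 0 and none past 2-fold. Tcf7, which sustains the naive state, had 27.4 and 50.4 FPKM (log2 ratio -0.86). Ccr7, the receptor that guides lymphocytes into the T zone, had 22.4 and 41.2 FPKM (log2 ratio -0.85). Foxp1, a factor that keeps lymphocytes quiescent, had 214 and 245 FPKM (log2 ratio -0.19). Cd44, a marker of memory cells, was level at 56.5 and 57.2 FPKM (log2 ratio -0.02). B cells also use Ccr7, so this gene is not confined to T cells.

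Regulatory T cell genes had a median of -0.04 over the 8 of 12 that reached the filter, 3 above 0 and 5 below. The side of this list turned with the filter: its median less that of all genes was -0.07 at 5 FPKM, 0.23 at 1 FPKM and 0.45 at 10 FPKM. Ikzf2, a transcription factor of these cells, had 23.5 and 12.7 FPKM (log2 ratio 0.84), and Tnfrsf4, a costimulatory receptor, 13.7 and 7.80 FPKM (log2 ratio 0.74). Il2ra, the receptor chain CD25, had 13.2 and 10.9 FPKM (log2 ratio 0.26), and Icos, another costimulatory receptor, 13.3 and 17.4 FPKM (log2 ratio -0.37). Foxp3, the defining factor, was below the filter with 4.26 FPKM in SryHi and 3.06 FPKM in wildtype males (log2 ratio 0.37). The 4 genes below the filter were all higher in SryHi.

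For cytotoxic and NK cells 6 genes reached the filter, 5 of them above 0, and their median log2 ratio was 0.48. Klrc1 and Eomes were under 5 FPKM in wildtype males and passed only through the SryHi value. Klrc1, an inhibitory receptor of the NKG2 family, had 10.5 FPKM in SryHi, 2.83 in wildtype males and 2.46 in females (log2 ratio 1.59). Klrk1, the activating receptor NKG2D, had 29.3, 17.2 and 13.4 FPKM (log2 ratio 0.74). The chemokine gene Ccl5 had 175 and 131 FPKM in SryHi against wildtype males (log2 ratio 0.41), and Klrd1, the partner of Klrc1, 41.6 and 28.1 FPKM (log2 ratio 0.55). The granule proteins of killing were low in both pools, with Gzma at 3.28 and 3.40 FPKM and Prf1 at 3.15 and 4.35 FPKM. Of the 12 genes below the filter, 8 were higher and 4 lower.

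B cell genes did not separate the pools. The 16 genes had a median of 0.00, 8 above 0 and 8 below, and none was 2-fold apart. Cd37, a tetraspanin, had 317 and 277 FPKM (log2 ratio 0.19), and Bank1, a scaffold of B cell receptor signalling, 287 and 217 FPKM (log2 ratio 0.40). Pou2af1 and Spib, transcription factor genes that B cells share with plasma cells and plasmacytoid dendritic cells, had log2 ratios of -0.57 and -0.53. Plasma cell genes had a median of -0.35 over 7, with 1 above 0, and wildtype males were the highest of the 3 libraries in 6. Mzb1, a chaperone of antibody assembly, had 17.0 and 42.4 FPKM (log2 ratio -1.27), and Jchain, which joins IgM and IgA, 168 and 273 FPKM (log2 ratio -0.70).

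Constant regions of the antibody genes differed by isotype. The IgG genes Ighg1 and Ighg2b had 214 and 307 FPKM in SryHi against 554 and 791 FPKM in wildtype males, and both had a log2 ratio of -1.36. In females they had 75.02 and 152 FPKM, so wildtype males were again the highest. The lambda gene Iglc1 had 52.3 and 196 FPKM (log2 ratio -1.88), while its near copies Iglc2 and Iglc3 had 199 and 151 FPKM and 215 and 171 FPKM. Higher in SryHi were Ighg3 at 47.9 and 24.8 FPKM (log2 ratio 0.92), and Igha at 44.3 and 23.3 FPKM (log2 ratio 0.90). The abundant kappa and mu genes were close, with 3727 and 4207 FPKM for Igkc and 1178 and 1298 FPKM for Ighm. Over all 12 genes the median was -0.16, with 4 at least 2-fold lower. The variable segments of the heavy and kappa chains were lower by more, with medians of -0.70 over 81 Ighv and -1.27 over 70 Igkv segments, of which 34 and 40 were at least 2-fold lower and 17 and 4 at least 2-fold higher. Over all autosomal genes 3.81% were at least 2-fold lower and 2.64% at least 2-fold higher. These segments are short and similar to one another, so reads may be split between them.

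Genes of the venules and of lymphatic vessels had medians above that of all genes. Over 7 of 16 high endothelial venule genes the median log2 ratio was 0.36, with 6 above 0 and none past 2-fold. Of the 9 genes below the filter 5 were higher and 3 lower, and the median less that of all genes came to 0.08 at a mean of 1 FPKM, against 0.32 at 5 FPKM. Glycam1, the sulfated mucin of these venules, was the exception at 89.8 FPKM in SryHi and 129 FPKM in wildtype males (log2 ratio -0.52). Gcnt1, an enzyme that branches the sugars of such mucins, had 43.7 and 26.5 FPKM (log2 ratio 0.70), and Ackr1, a chemokine-binding receptor of venules, 12.3 and 7.60 FPKM (log2 ratio 0.63). Enpp2, which makes lysophosphatidic acid at the venule wall, had 208 and 168 FPKM (log2 ratio 0.31). Other cells of the node also express Gcnt1 and Enpp2. The sulfotransferase and fucosyltransferase genes Chst4 and Fut7 were below the filter, at 2.30 and 2.61 FPKM and at 4.02 and 3.77 FPKM.

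Lymphatic endothelial genes had a median of 0.35 over 8, 6 above 0, and SryHi was the highest of the 3 libraries in 6. Mmrn1, a secreted glycoprotein, had 31.0 FPKM in SryHi, 14.5 in wildtype males and 8.68 in females (log2 ratio 1.05). Stab2, a scavenger receptor of sinus endothelium, had 32.6 and 25.7 FPKM (log2 ratio 0.33), and Lyve1, a hyaluronan receptor, 41.4 and 45.6 FPKM (log2 ratio -0.14). The 15 genes of blood endothelium had a median of 0.20, with 9 above 0, but less the median of all genes it was -0.16 at a mean of 10 FPKM. Vwf, a clotting protein, had 7.47 and 4.11 FPKM (log2 ratio 0.73), Eng, a receptor of the TGF-beta family, 19.9 and 33.0 FPKM (log2 ratio -0.70), and Pecam1 120 and 102 FPKM (log2 ratio 0.24).

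Stroma was mixed. The 14 reticular stroma genes had a median of 0.00, 7 above 0 and 7 below, with the survival cytokine gene Il7 at 23.9 and 13.5 FPKM (log2 ratio 0.77), and the receptor gene Pdgfrb at 5.36 and 9.90 FPKM (log2 ratio -0.78). Cxcl12, which retains many blood cells, had 403 and 335 FPKM (log2 ratio 0.27). Collagen and matrix genes had a median of -0.14 over 18, with 3 at least 2-fold lower, among them Col1a1 at 6.54 and 15.7 FPKM and Col6a3 at 6.16 and 14.9 FPKM, log2 ratios of -1.15 in both. Postn, a matrix protein of growing connective tissue, went the other way at 65.7 and 27.4 FPKM (log2 ratio 1.23), and so did Dcn, a proteoglycan on collagen fibrils, at 426 and 217 FPKM (log2 ratio 0.97). Wildtype males were the highest of the 3 libraries in 11 of the 18.

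Among myeloid cells, monocyte genes were higher and macrophage genes level. Fcgr4, the activating receptor for IgG2 antibodies on monocytes and macrophages, had 32.5 FPKM in SryHi, 4.80 in wildtype males and 2.22 in females (log2 ratio 2.53). Ly6c2, a marker of inflammatory monocytes, had 114, 60.9 and 66.04 FPKM (log2 ratio 0.90), and Fcer1g, the signalling chain that Fcgr4 needs, 141, 110 and 88.7 FPKM (log2 ratio 0.36). The SryHi pool was the highest of the 3 in each. The list had a median of 0.33 over 13 genes, with 10 above 0. Fcgr2b, the inhibitory Fc receptor, was level at 75.6 and 78.2 FPKM. The 17 macrophage genes had a median of 0.14, with 9 above 0 and none 2-fold apart. Timd4, a receptor for dying cells, had 146 and 75.7 FPKM (log2 ratio 0.94), Siglec1, of sinus macrophages, 26.3 and 38.1 FPKM (log2 ratio -0.52), and Lyz2, lysozyme, 522 and 648 FPKM (log2 ratio -0.31).

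Dendritic cell genes had a median of 0.28 over 16, with 12 above 0 and SryHi the highest of the 3 libraries in 12. Xcr1, which marks the dendritic cells that cross-present antigen, had 12.9 and 6.68 FPKM (log2 ratio 0.85), and Tcf4, the factor of plasmacytoid dendritic cells, which B cells also use, 130 and 109 FPKM (log2 ratio 0.25). Of the genes that present antigen to helper T cells, the 12 of MHC class II had a median of -0.26. They did not move together: H2-Ab1 had 925 and 602 FPKM (log2 ratio 0.62), while its partner chain H2-Aa had 983 and 1109 FPKM (log2 ratio -0.17), and the invariant chain Cd74 1031 and 1388 FPKM (log2 ratio -0.43). In the class I pathway, with a median of -0.01 over 17, B2m, the light chain that all class I molecules share, had 3959 FPKM in SryHi, 1712 in wildtype males and 2033 in females (log2 ratio 1.21). The heavy chain genes H2-K1 and H2-D1 had log2 ratios of -0.18 and -0.29. Psme1, an activator of the proteasome, had 214 and 105 FPKM (log2 ratio 1.01), and Psmb8, a subunit of the immunoproteasome, 60.3 and 94.7 FPKM (log2 ratio -0.64).

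All 7 mast cell genes at the filter lay above 0, with a median of 0.27, which was 6 of 7 with length classes subtracted. Gata2, a transcription factor of mast cells and basophils, had 9.03 and 3.85 FPKM (log2 ratio 1.05), and Cpa3, a granule protease, 80.9 and 43.9 FPKM (log2 ratio 0.87). Mcpt4 and Cma1, the chymases of connective tissue mast cells, had 98.3 and 87.9 FPKM and 49.8 and 41.1 FPKM. SryHi was the highest of the 3 libraries in all 7. None of the 6 eosinophil and basophil genes reached the filter.

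Fat cell genes were higher in the SryHi pool. Of 23 genes listed, 13 reached the filter, 10 lay above 0 and 3 below, with a median of 0.22 and an upper quartile of 1.20. The lowest of the 3 had a log2 ratio of -0.76. Cfd, adipsin, had 45.8 FPKM in SryHi, 9.77 in wildtype males and 24.2 in females (log2 ratio 2.12). Pparg, the master regulator of fat cells, had 21.4, 5.13 and 9.09 FPKM (log2 ratio 1.87), and Car3, a carbonic anhydrase abundant in fat, 50.2, 14.0 and 29.2 FPKM (log2 ratio 1.77). In each of these the wildtype male pool was the lowest of the 3 libraries. Fabp4, a fatty acid carrier, had 116 and 49.95 FPKM (log2 ratio 1.20), and Scd1, a desaturase, 125 and 114 FPKM (log2 ratio 0.13). Of the 10 genes below the filter, 8 were higher in SryHi, among them the defining markers Adipoq, at 6.84 and 1.94 FPKM, and Plin1, at 5.25 and 1.41 FPKM, and Ucp1 of brown fat was listed at 0. The list summed to 509 FPKM in SryHi, 308 in wildtype males and 323 in females. Of the other tissues around a node, muscle and skin genes were low, while red cell and nerve genes were present. The 15 skeletal muscle genes summed to 29.8 FPKM in SryHi and 34.4 in wildtype males, with Acta1 and Mb listed at 0 in SryHi. Krt5 and Krt14 of skin were listed at 0 in both male pools, and the red cell gene Hbb-bs had 31.3 and 57.6 FPKM. The 11 nerve genes summed to 45.8 FPKM in SryHi and 39.9 in wildtype males. The part of fat in the other results was not tested.

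**Figure D2:**
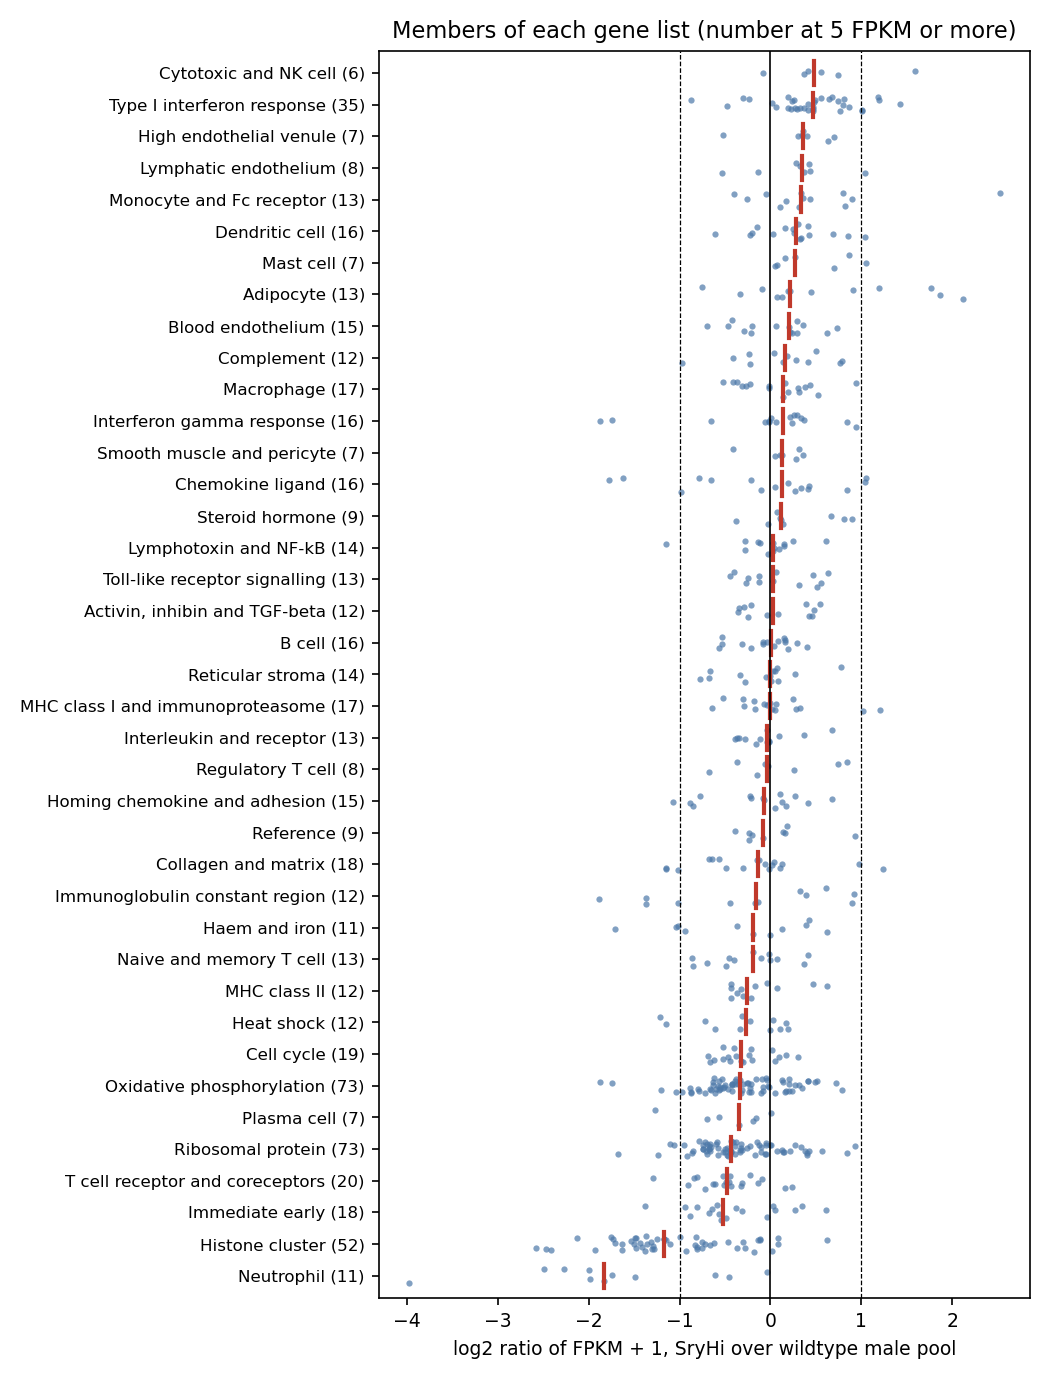
Log2 ratio of FPKM + 1, SryHi over wildtype males, for each member (point) of the gene lists with at least 5 members at the filter, with the median of each list as a red bar and the number of members in brackets. The solid line is at 0 and the dashed lines mark 2-fold; points are spread vertically for sight only. The medians run from -1.83 for neutrophil genes to 0.48 for cytotoxic and NK cell genes at the deposited scale, and rescaling to TPM raises the median of all genes by more than 1.

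Histone genes were lower in SryHi. The clustered histone genes are copied in S phase to package new DNA, and their messages end in a stem loop in place of a poly(A) tail. Of 52 genes at the filter, 48 lay below 0 and 29 were at least 2-fold lower, with a median of -1.17. Over all autosomal genes 3.81% were at least 2-fold lower. All 5 histone classes were below 0: the medians were -0.81 for 5 H1, -1.02 for 10 H2A, -0.82 for 15 H2B, -1.48 for 10 H3 and -1.17 for 12 H4 genes. Hist1h2ag had 1.29 FPKM in SryHi, 12.7 in wildtype males and 10.1 in females (log2 ratio -2.58), and Hist1h4n 2.84, 20.3 and 9.63 FPKM (log2 ratio -2.47). Hist1h4h had 29.5, 115 and 70.4 FPKM (log2 ratio -1.93). SryHi was the lowest of the 3 libraries in 44 of the 52. Of these, 42 lie in the Hist1 cluster on chromosome 13, 26 of them at least 2-fold lower. Chromosome 13 had 27 of its 357 protein-coding genes at least 2-fold lower, 7.56%, beside 1.64% of all protein-coding genes. That count takes in the Hist1 genes, so it is not separate from the histone result. Messages are near 500 nt long and very similar to one another, and with length classes subtracted the median was -0.69. The shortest length class itself holds histone genes, so the subtraction takes out part of their own difference.

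The genes of the cell cycle itself differed less. Their median was -0.32 over 19, with 5 above 0 and none past 2-fold. Top2a, the topoisomerase of dividing cells, had 16.0 and 26.5 FPKM (log2 ratio -0.69), Ccna2, cyclin A2, 5.91 and 9.97 FPKM (log2 ratio -0.67), and Pcna, the sliding clamp of DNA replication, 60.3 and 58.4 FPKM (log2 ratio 0.05). Hmgb2, a chromatin protein of proliferating cells, had 35.1 and 28.2 FPKM (log2 ratio 0.30). Wildtype males were the highest of the 3 in 12 of the 19.

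Ribosomal protein genes had a median of -0.43 over 73, with 16 above 0 and 4 at least 2-fold lower. Rpl15 had 15.8 FPKM in SryHi, 52.4 in wildtype males and 91.8 in females (log2 ratio -1.67), and Rps14 154, 363 and 533 FPKM (log2 ratio -1.23), whereas Rps26 had 1536 and 1214 FPKM in SryHi against wildtype males (log2 ratio 0.34). SryHi was the lowest of the 3 libraries in 56. Oxidative phosphorylation genes of the nucleus had a median of -0.33 over 73, with 18 above 0. Ndufb6, of complex I, had 5.16 and 21.5 FPKM (log2 ratio -1.87), and Uqcrq, of complex III, 15.4 and 53.7 FPKM (log2 ratio -1.74), while the abundant Cox6c had 221 and 165 FPKM (log2 ratio 0.42). These genes have short transcripts, and with length classes subtracted the medians came to -0.22 and -0.15. Many have near identical pseudogenes, between which reads may be split.

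Several immune lists had medians close to that of all genes. For homing chemokines and adhesion the median was -0.07 over 15 genes, with Itgb7, an integrin chain of gut homing, at 18.8 and 40.5 FPKM (log2 ratio -1.07), and the chemokine receptor gene Cxcr4 at 47.5 and 88.4 FPKM (log2 ratio -0.88). The 14 lymphotoxin and NF-kB genes had a median of 0.03, with Ltb, which encodes lymphotoxin beta, at 42.3 and 95.0 FPKM (log2 ratio -1.15). The 12 complement genes had a median of 0.16, and the inhibitor gene Cd55 had a log2 ratio of 0.76 beside -0.98 for C4b. Toll-like receptor genes had a median of 0.02 over 13, and interleukin and receptor genes one of -0.04, with 10 of 13 below 0. Smooth muscle and pericyte genes had a median of 0.13 over 7. Of 9 germinal centre genes 3 reached the filter, with log2 ratios from -0.40 for Fas to 0.50 for Gcsam.

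Transcript length went with the ratio across the protein-coding genes. Genes with a longest transcript of 300 to 500 nt had a median log2 ratio of -0.82 over 39, and 20.5% of them lay above 0. Histone genes are among these 39, such as Hist1h2ag, Hist1h2ab, Hist1h4h and Hist1h4n, so this class is not separate from the histone result. The median was -0.30 from 500 to 750 nt, -0.13 from 1000 to 1500 nt, 0.03 from 3000 to 4000 nt and 0.15 over 1408 genes of 6000 nt or more, of which 67.6% lay above 0. At least 2-fold lower were 17 of the 39 shortest and 5 of the 1408 longest genes. The file gives no measure of RNA length or integrity, so a difference in fragment size between the libraries and a difference between the mice cannot be told apart. With the median of the length class subtracted, an alternative added after the values were seen, 126 protein-coding genes were at least 2-fold higher and 114 lower, against 115 and 146 without it. The list medians moved by 0.25 or more in 2 of 39 lists, the histone list and the cytotoxic and NK cell list, which went to 0.71.

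**Figure D3:**
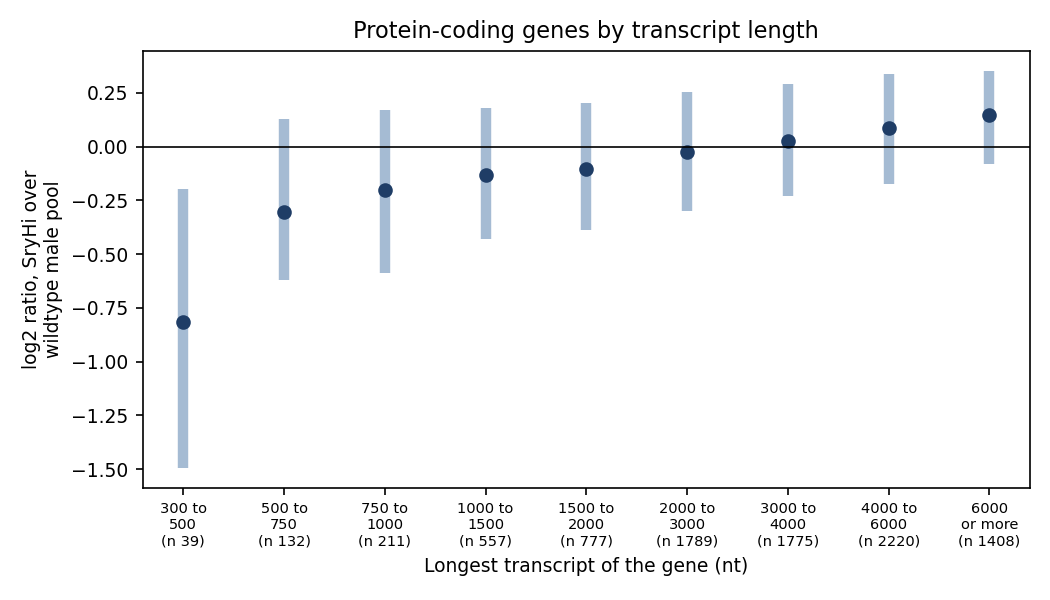
Log2 ratio of FPKM + 1, SryHi over wildtype males, of protein-coding genes in 9 classes of longest transcript length in nt, with the median as a point, the quartiles as a bar and the number of genes in brackets. The median runs from -0.82 in the shortest class to 0.15 in the longest at the deposited scale.

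The genes with the highest ratios belonged to several cell types. Gm45062, a predicted gene that overlaps Umad1 and Glcci1, had 10.01 FPKM in SryHi and was near 0 in wildtype males (log2 ratio 3.46). Cd163l1, a scavenger receptor cysteine-rich protein known in mouse from gamma-delta T cells, had 32.6 FPKM in SryHi, 3.13 in wildtype males and 4.95 in females (log2 ratio 3.02). Negr1, a neuronal adhesion molecule, had 17.5, 1.73 and 0.743 FPKM (log2 ratio 2.76), and Nnat, an imprinted membrane protein, 9.44, 1.08 and 1.12 FPKM (log2 ratio 2.33). In these genes the SryHi pool stood far above both wildtype pools. They were picked by the ratio of the male pools, and each passed the filter only through the SryHi value. Nnat lies within an intron of Blcap. Gm10260 had 10.4 and 1.28 FPKM (log2 ratio 2.33), and Sgip1, an endocytic adaptor, 12.2 and 1.91 FPKM (log2 ratio 2.18). Bcl2a1d, a survival gene of the BCL2 family with close copies, had 26.3 and 7.15 FPKM (log2 ratio 1.74). Fchsd1, Rps6kc1, BC035044 and Tcf7l2 completed the 15 highest with log2 ratios of 1.88, 1.74, 1.74 and 1.67. BC035044 overlaps Clec2i, and Tcf7l2, a transcription factor of the Wnt pathway, had 37.8, 11.2 and 7.63 FPKM.

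The 15 genes with the lowest ratios were mostly neutrophil and histone genes. Of the rest, Dapl1, a gene related to a death-associated protein, had 1.34 FPKM in SryHi, 13.1 in wildtype males and 22.3 in females (log2 ratio -2.60), which at the estimated depth is about 4.92 against 54.4 fragments. Mrpl53, of the mitochondrial ribosome, had 1.30, 10.7 and 9.11 FPKM (log2 ratio -2.34), from about 5.15 and 47.5 fragments. In both of these SryHi was the lowest of the 3 libraries. Over all protein-coding genes at least 2-fold higher, SryHi was the highest of the 3 in 115 of 115 and wildtype males the lowest in 79. Over those at least 2-fold lower, SryHi was the lowest in 133 of 146 and wildtype males the highest in 115, so the female value lay between for most genes. The wildtype male library enters every ratio, and these counts do not show which pool is the unusual one.

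**Figure D4:**
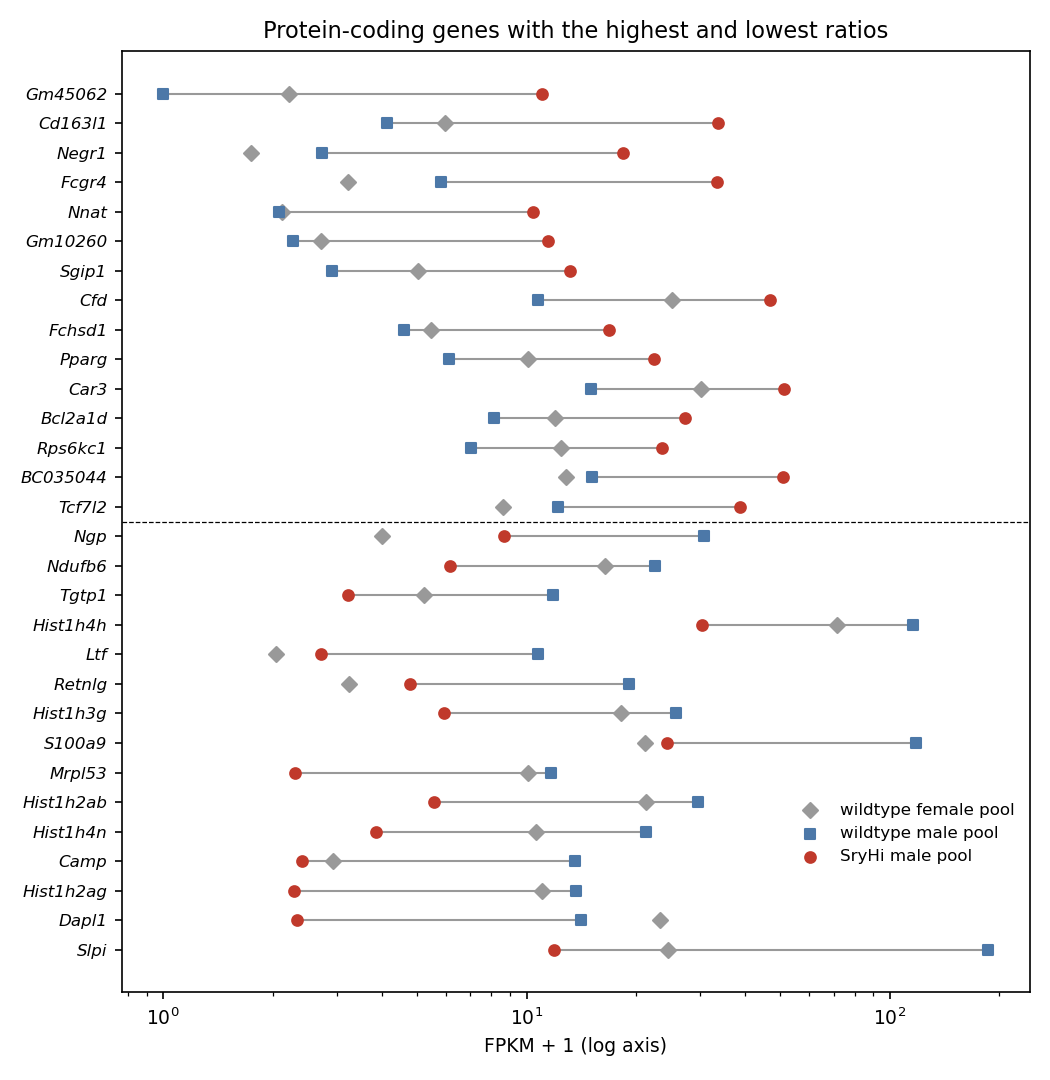
FPKM + 1 (log axis) of the 15 protein-coding genes with the highest ratios (above the dashed line) and the 15 with the lowest ratios (below it) in the SryHi male, wildtype male and wildtype female pools, 1 point per library, with a line joining the male pools. In the lower group the female points of Slpi, Camp, S100a9, Retnlg, Ltf and Ngp lie near the SryHi points, while those of Dapl1, Mrpl53 and the histone genes lie nearer the wildtype male points.

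Chromosome 3, which carries the transgene, had the highest median of the autosomes, 0.13 over 464 protein-coding genes, and 0.11 with length classes subtracted. Chromosomes 18 and 1 followed at 0.13 and 0.12, and chromosome 15 had the lowest at -0.08. On chromosome 3, 10 genes were at least 2-fold higher, 2.16%, and 8 lower, 1.72%. Over all protein-coding genes the shares were 1.29% and 1.64%. Chromosomes 6 and 1 had larger shares at least 2-fold higher, 2.99% and 2.25%. The insertion site is not given in the sources used here, so no gene could be placed beside it. Negr1, Car3 and S100a9 are among the genes of this chromosome named above.

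Genes of the activin and steroid hormone pathways were also listed. Inha, Inhba and Inhbb, the subunits of inhibin and activin, had 0.301, 0.319 and 0.829 FPKM in SryHi and 0.285, 0.363 and 1.34 FPKM in wildtype males, all below the filter. The 12 measured genes of activin, inhibin and TGF-beta signalling had a median of 0.02, 6 above 0 and 6 below. Smad3, a signal carrier of activin and TGF-beta, had 15.9 and 10.6 FPKM (log2 ratio 0.54), Acvr2a, an activin receptor, 9.53 and 6.55 FPKM (log2 ratio 0.48), and Tgfb1 64.3 and 82.9 FPKM (log2 ratio -0.36). Steroid hormone genes had a median of 0.12 over 9, with Nr3c1, the glucocorticoid receptor, at 55.7 and 50.5 FPKM (log2 ratio 0.14), and Zbtb16, a glucocorticoid target and lymphocyte factor, at 7.51 and 3.59 FPKM (log2 ratio 0.89). Genes that act with Sry in the testis were near absent: Dmrt1, Nr5a1, Fgf9 and Wt1 were listed at 0 in both male pools and Sox9 had 0.177 and 0.196 FPKM.

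Of the remaining 1431 autosomal genes, mostly non-coding or segments, 158 were at least 2-fold higher and 248 lower. Genes shorter than 100 nt gave the most extreme values. Trbj1-6, a joining segment of the T cell receptor beta chain, had 128345 FPKM in SryHi and was listed at 0 in wildtype males, while Trbj1-3 had 131214 FPKM in wildtype males and was listed at 0 in SryHi. Ighj1, of the same 53 nt as Trbj1-6, had the same 128345 FPKM in SryHi, and Traj31 and Traj33, both of 57 nt, the same 56137.1 FPKM in wildtype males. At these 2 lengths the genes with a value above 0 shared it, and the folds of genes this short are given only as values. Of 101 small nucleolar RNAs, which guide modification of ribosomal RNA, 56 were at least 2-fold lower and 16 at least 2-fold higher. The shares over all autosomal genes were 3.81% lower and 2.64% higher. Of the 101, 35 were listed at 0 in SryHi against 14 in wildtype males. Of longer non-coding RNAs, Malat1, a nuclear RNA of all cells, had 13407 and 7216 FPKM (log2 ratio 0.89), and Terc, the RNA of telomerase, 8.32 and 33.6 FPKM (log2 ratio -1.89). Among the reference genes the median was -0.08 over 9, with Actb at 3085 and 2715 FPKM (log2 ratio 0.18), and Tbp at 31.4 and 16.1 FPKM (log2 ratio 0.93).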

How the data were processed

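RNA of whole popliteal lymphnodes was pooled per group by the authors, who made stranded, ribosome-depleted libraries, mapped the paired reads of 50 bases to mm10 with HiSat2 and Samtools and ran Cufflinks and Cuffdiff. Versions are not given in the sources used here. The authors deposited 2 Cuffdiff tables of 48808 entries with the FPKM of each library, which are normalized by transcript length and mapped fragments, and with the authors' fold change, test statistic, p-value, q-value and call, none of which was used. No entry had the status FAIL, HIDATA or LOWDATA, 2 emptied lines per table were skipped, and entries were summed per symbol (231 symbols had several). The wildtype male FPKM differed by over 1% between the tables in 2 symbols, and the table holding SryHi was used.

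A pseudocount of 1 FPKM and a mean of at least 5 FPKM were set, and 2-fold was taken as the limit. Gene type, position and longest transcript came from GENCODE M21 on GRCm38, which holds 99.8% of the genes described, and promoter windows from RefSeq on GRCm38.p6. Depth was estimated from the step that low FPKM values take once multiplied by transcript length, 0.18 for SryHi and 0.16 for wildtype males FPKM x kb for 1 fragment, and is approximate. With 1 library per group no test or p-value was computed. The steps were tested on simulated data. Python 3.11.15, pandas 2.3.3, numpy 2.4.6 and matplotlib 3.10.9 were used.

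The genes described and the 48 gene lists were chosen with earlier results of these data known, so a list's direction is not independent evidence. Named were the 15 highest and 15 lowest protein-coding ratios, the 5 highest and 5 lowest of the other genes, the 2 most different and 2 most abundant members of each list, and the genes the study names. All other genes were chosen after their values were seen. Not every gene named by this rule is described in the text. Alternatives were the pseudocount, the filter, the scale, the gene types, the entry status and the entries per symbol.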

Additional observations from a re-analysis of the deposited data

How the results depend on the processing

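No paired analysis was possible because each group is 1 library, and leaving out a replicate was not possible for the same reason. As reported, 273 autosomal genes were at least 2-fold higher and 394 lower. The counts were 545 and 626 where the mean was 1 FPKM or more, 659 and 742 with no filter, 115 and 146 among protein-coding genes of at least 300 nt, and 126 and 114 with the length class subtracted, which was chosen after seeing the data. A pseudocount of 5 FPKM left 156 higher, and a mean of 10 FPKM or more left 181. On the TPM scale 8712 were higher and 109 lower, 98.8% higher among those past 2-fold against 40.9% as deposited, with a median log2 ratio of 1.46; about that median the counts were 214 and 393. Scaling by the upper quartile or the protein-coding sum gave 242 and 418. The pseudocount of 0.1, the status alternative and 1 entry per symbol stayed within 1.5 times the reported counts. No list at least 0.25 from the median of all genes changed its side of it under an alternative that gave it a value; the small nucleolar RNA list had none among protein-coding genes or with the length class subtracted. By 0.25 or more moved 1 of 42 lists with a pseudocount of 5 FPKM, 3 at 1 FPKM, 4 with no filter, 2 of 41 at 10 FPKM and 2 of 39 with the length class subtracted; the adipocyte list went to 0.93 above that median at 1 FPKM, the germinal centre list to -0.29, and the regulatory T cell list to 0.45 at 10 FPKM. These causes were not tested. The depth limits low genes: values under 5 FPKM rest on few fragments in short genes.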

Other observations

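Genes of gamma-delta T cells, which were chosen after their values were seen, went against the alpha-beta receptor genes. Tcrg-C1, a constant region of the receptor gamma chain, had 27.9 FPKM in SryHi males, 9.001 in wildtype males and 5.53 in females, a log2 ratio of 1.53. Tcrg-V6, a gamma variable segment, had 12.6, 1.23 and 2.74 FPKM (log2 ratio 2.61), and Trdc, the constant region of the delta chain, 8.99, 2.65 and 3.27 FPKM (log2 ratio 1.45). SryHi was the highest of the 3 libraries in each. All 4 gamma genes at a mean of 5 FPKM lay above 0, with a sum of 59.8 FPKM in SryHi and 22.9 in wildtype males. Tcrg-V6 and Trdc, and Il23r below, reached that mean only through the SryHi value. The direction of such genes is not independent of the filter. Of 10 beta variable segments 2 lay above 0 and 4 were at least 2-fold lower, with a median of -0.41. Cd163l1, a receptor of the same cells, had the ratio ranked 2 among protein-coding genes. Il23r, which gamma-delta T cells that make IL-17 carry, had 8.51, 2.31 and 3.44 FPKM (log2 ratio 1.52), and the factor gene Sox13 had a log2 ratio of 0.49. Il17a was listed at 0 in all 3 libraries.

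Monocyte receptor genes below the filter or in no list, also chosen after their values were seen, had the direction of Fcgr4. Cd300e had 8.03 FPKM in SryHi and 0.423 FPKM in wildtype males, under the mean filter. Sirpb1c, a signal regulatory protein, had 11.2, 3.01 and 0.943 FPKM in SryHi males, wildtype males and females, a log2 ratio of 1.60. Klra2, a lectin-like receptor of the Ly49 family, had 8.26, 2.05 and 0.904 FPKM (log2 ratio 1.60). F13a1, a transglutaminase of monocytes and macrophages, had 20.95, 7.72 and 5.45 FPKM (log2 ratio 1.33). In these genes the order of the libraries was SryHi, wildtype males, females. The flavin monooxygenase genes Fmo1 and Fmo2 had 68.3 and 16.0 FPKM in SryHi against 27.0 and 5.16 FPKM in wildtype males, log2 ratios of 1.31 and 1.47. Top2b, the topoisomerase of resting cells, had 201 FPKM in SryHi, 78.5 in wildtype males and 73.1 in females (log2 ratio 1.35), beside a log2 ratio of -0.69 for Top2a.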
